A study of Mus musculus with 15 samples.

Results

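Transcripts of 34 target genes of the transcription factor Atf4 were examined in RNA sequencing data of the embryonic mouse pancreas. They are listed targets of the integrated stress response, and each was found through its symbol in the GENCODE M21 annotation. All 34 were present among the 25292 genes of the count table, and all 34 carried enough reads to be tested. They comprised 7 transcription factors (Atf4, Atf3, Atf5, Ddit3, Cebpb, Cebpg and Nupr1), 6 genes of feedback and growth control (Trib3, Chac1, Sesn2, Ddit4, Ppp1r15a and Eif4ebp1), and 6 enzymes of serine and one-carbon metabolism (Phgdh, Psat1, Psph, Shmt2, Mthfd2 and Mthfd1l). The others were 2 genes of asparagine and cysteine synthesis (Asns and Cth), 2 of proline synthesis (Aldh18a1 and Pycr1), 8 amino acid transporter genes (Slc7a11, Slc7a5, Slc3a2, Slc7a1, Slc7a3, Slc1a4, Slc6a9 and Slc38a2), and 3 genes of secreted or cell surface proteins (Stc2, Gdf15 and Vldlr). The list was drawn up with results of these libraries known, among them the strong rise of Trib3 in explants treated with JTE013. The values of JTE013-treated against control explants are therefore given as a description. Calls in that contrast are counted beside those over all genes, but no p-value is printed for these genes and nothing is read from their number.

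The 15 libraries, all of strain C57/Bl6J, fell into 5 groups of 3. Freshly isolated pancreata at 14.5 days post coitum (dpc) were either wild-type (wt) or labelled S1pr2 null, the null allele being S1pr2tm1Rlp by the methods of the study. S1pr2 is a receptor for the lipid mediator sphingosine-1-phosphate. Wild-type explants of the dorsal pancreatic bud at 14.5 dpc were kept for 2 days in serum-free air-liquid interface culture, where the tissue lies on a filter at the surface of the medium. They received standard medium (control), 15 μM of the S1pr2 antagonist JTE013 (JTE), or 15 μM JTE013 with 50 ng/ml connective tissue growth factor (JTE with CTGF), with daily replenishment. The study states that culture controls held an equal amount of solvent where appropriate, but calls the medium of the sequenced controls normal. Whether the control explants here held solvent is thus unclear. Each library pooled up to 3 pups or explants, and the p-values below measure the spread between such pools. In bulk tissue, fewer cells of a type and less RNA per cell cannot be told apart.

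The integrated stress response begins when kinases that sense amino acid shortage, misfolded protein in the endoplasmic reticulum (ER), viral RNA or haem shortage phosphorylate the translation factor eIF2α. General translation then slows, while the Atf4 mRNA is translated more, so that Atf4 protein can increase without a change of its transcript. Atf4 switches on genes for amino acid uptake and synthesis, for further transcription factors such as Chop (Ddit3), and for proteins that dampen the response or promote cell death. The exocrine pancreas, with its high rate of protein synthesis, depends on this pathway.

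Libraries held 11402804 to 13828737 counted reads, and the share of reads from mitochondrial genes was 1.01% to 1.498%. Reads of S1pr2 itself were more frequent under the label S1pr2 null than under wt, against what the label would give for a lost transcript. An altered allele can still be transcribed, and counts per gene show neither the exons read nor the protein, so they do not decide on the genotype, and every direction for these libraries rests on the label. Every pair of libraries within a group differed beyond sampling noise (chi-square over genes, 2.26 to 21.8 per gene), and JTE 3 stood furthest apart. The epithelial, mesenchymal and pancreatic marker lists, with Epcam, Col1a1 and Pdx1 among them, were detected in all groups.

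Atf4 binds DNA together with a C/EBP protein at composite elements. Promoter windows of RefSeq transcripts on GRCm38.p6, from 250 bases before to 50 bases after the start, were found for 30 of the 34 genes. The letters TGATGNAA of the composite element, searched on both strands, occurred in the windows of 9 of the 30 genes (30%), compared with 4.51% of all 27025 genes with a window. The 9 were Asns, Atf3, Chac1, Nupr1, Pycr1, Slc1a4, Slc7a11, Trib3 and Vldlr. The 4 of these with the largest change in JTE explants are shown, as is Pycr1, which had the smallest, because no gene with a match was without change. The sequences run 5′ to 3′ on the strand of the gene, with the matched letters in capitals.
Trib3, chr2:152344028-152344057, minus strand: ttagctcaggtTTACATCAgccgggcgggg
Slc7a11, chr3:50443661-50443690, minus strand: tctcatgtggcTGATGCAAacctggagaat
Slc7a11, chr3:50443642-50443671, minus strand: acctggagaatTTGCATCAtcatgcagccc
Vldlr, chr19:27216809-27216838, plus strand: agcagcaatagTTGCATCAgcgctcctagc
Chac1, chr2:119351038-119351067, plus strand: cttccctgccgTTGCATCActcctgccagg
Pycr1, chr11:120643833-120643862, minus strand: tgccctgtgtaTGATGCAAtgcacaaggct
Slc7a11 carried the letters on both strands within a short stretch, and in Trib3 they lay 15 to 22 bases after the start. The palindromic cAMP response element TGACGTCA occurred in 1 of the 30 genes, Ppp1r15a, compared with 2.03% of all genes. The ER stress element (CCAAT, 9 bases of any kind, CCACG), which is bound by Atf6, occurred in 0 of the 30, compared with 0.137% of all genes. A match describes the letters in this window and does not show binding. The genes were listed as Atf4 targets, so a share above that of all genes can follow from how the list was made.

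The 34 genes together took 0.230% to 0.254% of the reads in wt libraries and 0.199% to 0.202% in those labelled S1pr2 null. In control explants they took 0.318% to 0.359%, in JTE explants 0.930% to 0.936%, and in JTE with CTGF 0.908% to 1.02%. Per length, expressed as reads per kilobase of transcript scaled to library size (RPKM), 5 of the 34 genes had a mean level below 1 in wt and 0 had one below 1 in JTE explants. Conversely, 0 had a mean level above 100 RPKM in wt, 3 in control and 10 in JTE explants. Nupr1 was highest in JTE explants, at a mean of 801 RPKM, and Slc7a11 was lowest, at 3.44 RPKM.

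**Figure D1:**
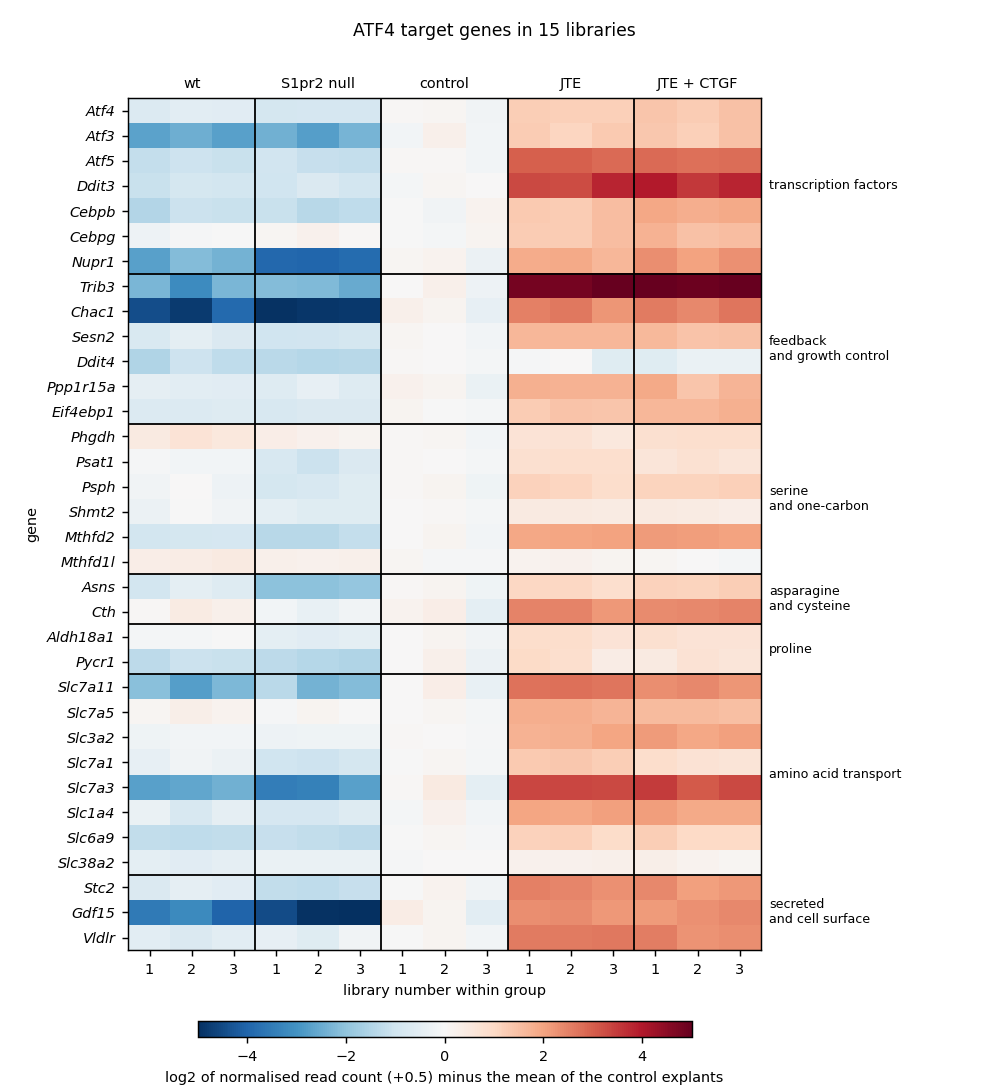
Heat map of the 34 genes (rows, grouped by role) in the 15 libraries (columns, numbered within each group), as the log2 normalised read count (with 0.5 added) minus the mean of the control explants, on a colour scale from −5 to 5. All 6 libraries with JTE are above the control mean for 32 of the genes, while Trib3 has the deepest red and Ddit4 does not rise.

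In the comparison of JTE with control explants, 33 of the 34 genes were called higher at an edgeR adjusted p below 0.05 and 0 lower, beside 25.9% and 26.2% of all genes tested. The same contrast stood behind the choice of the list, so nothing is read from this count. At least doubled levels were found for 25 of the 34, beside 2.79% of all genes. The median log2 fold change was 1.52, beside 0 over all genes, and single genes ranged from −0.20 for Ddit4 to 4.89 for Trib3. Without the library JTE 3, the median was 1.51, and Trib3 and Ddit3 stood at 4.78 and 3.27. In JTE with CTGF relative to the same control libraries, 32 were called higher and 1 lower, beside 28.1% and 33% of all genes, with a median of 1.63.

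The transcription factors were compared first. Atf4 (ENSMUSG00000042406, chromosome 15, 80255184 to 80257540 in mm10) was read 2228, 2325 and 2317 times in wt, in the order of the library numbers, and 1784, 1957 and 2161 times in the libraries labelled S1pr2 null. Control explants held 3211, 3469 and 2761 Atf4 reads, JTE explants 7210, 7309 and 7879, and explants with JTE and CTGF 7521, 6810 and 7590. The groups of explants with and without JTE did not overlap, and the JTE level was 2.29 times the control level. The mean level rose from 151 RPKM in control to 346 RPKM in JTE explants.

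Ddit3 encodes Chop, a factor of stress-induced cell death. It was read 123, 135 and 135 times in wt and 121, 157 and 149 times in the libraries labelled S1pr2 null. The control libraries held 208, 250 and 231 Ddit3 reads, those with JTE 2199, 2228 and 3574, and those with JTE and CTGF 3223, 2423 and 2829. The log2 fold change in JTE relative to control was 3.47 ± 0.14 (SE, n = 3 per group), which was the largest among the transcription factors. JTE 3 was higher than the other libraries of its group. Exons of Ddit3 overlap those of Mars on the opposite strand, a tRNA synthetase gene that stood at a mean of 1607 normalised reads in control and 2809 in JTE explants.

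Atf5, which acts in the mitochondrial stress response, was read 898, 946 and 906 times in wt and 964, 905 and 955 times in the libraries labelled S1pr2 null. Its counts were 1819, 1902 and 1620 in control, 13816, 14372 and 14231 in JTE and 11510, 10808 and 10749 in JTE with CTGF. The rise in JTE was 2.94 ± 0.07 (SE) on the log2 scale, so that Atf5, at a mean of 567 RPKM, stood above Atf4 in these explants, whereas in control it lay below Atf4 at 73.8 RPKM.

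Nupr1 encodes a small stress-induced chromatin protein that is abundant in acinar cells under stress. Wt libraries held 1207, 1635 and 1474 Nupr1 reads, and libraries labelled S1pr2 null held 478, 483 and 575. Counts of 7164, 7913 and 5545 were found in control, 23825, 25940 and 23895 in JTE, and 30850, 24658 and 29227 in JTE with CTGF. Nupr1 was thus the factor with the widest range over the 5 groups in RPKM, from 15.2 in the libraries labelled S1pr2 null to 1063 in JTE with CTGF.

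Atf3 represses stress genes in many tissues. Its reads were few before culture, with 45, 51 and 42 in wt and 50, 42 and 63 in the libraries labelled S1pr2 null. Control explants held 227, 316 and 232 Atf3 reads, JTE explants 601, 548 and 697, and JTE with CTGF 584, 535 and 612. Cebpb and Cebpg encode C/EBP partners of Atf4. Cebpb was read 133, 162 and 164 times in wt, 155, 138 and 163 times in the libraries labelled S1pr2 null, 310, 294 and 359 times in control, 767, 778 and 1046 times in JTE and 1120, 1010 and 1046 times in JTE with CTGF. Relative to control, the log2 fold changes in JTE were 1.20 ± 0.11 (SE) for Atf3, 1.37 ± 0.10 (SE) for Cebpb and 1.36 ± 0.09 (SE) for Cebpg, beside 1.20 ± 0.07 (SE) for Atf4. Exons of Cebpb overlap Tmem189 on the opposite strand, and 18.1% of its words are shared, so that its count is uncertain. Exons of Atf5, Ppp1r15a and Shmt2 also overlap genes on the opposite strand.

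Feedback genes followed. Trib3 (ENSMUSG00000032715, chromosome 2, 152337422 to 152344032) encodes a pseudokinase that inhibits Atf4 and Chop. It was nearly silent before culture, with 27, 14 and 26 reads in wt and 27, 28 and 25 in the libraries labelled S1pr2 null. In control 116, 143 and 97 Trib3 reads were counted, in JTE 3163, 3325 and 4530, and in JTE with CTGF 4390, 3192 and 3638. Trib3 had the largest change of the 34 genes in JTE, 29.7-fold over control. Its mean level went from 4.6 RPKM in control to 137 RPKM in JTE explants.

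Chac1, which degrades glutathione, was read 11, 8 and 16 times in wt and 7, 8 and 9 times in the libraries labelled S1pr2 null. It reached 254, 251 and 165 reads in control, 1244, 1380 and 1122 in JTE and 1196, 1059 and 1216 in JTE with CTGF. On the log2 scale, most of its range over the groups therefore lay between fresh tissue and control explants.

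Ppp1r15a encodes Gadd34, the stress-induced subunit that directs a phosphatase to eIF2α. It was read 334, 300 and 291 times in wt and 266, 332 and 314 times in the libraries labelled S1pr2 null, and 446, 442 and 313 times in control. JTE explants held 1315, 1348 and 1487 Ppp1r15a reads and explants with JTE and CTGF 1336, 947 and 1121. Its log2 fold change in JTE was 1.74 ± 0.12 (SE). Sesn2, an inhibitor of mTORC1 signalling, had one of 1.67 ± 0.08 (SE).

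Eif4ebp1 encodes the translation repressor 4E-BP1. The reads were 540, 514 and 531 in wt, 458, 519 and 558 in the libraries labelled S1pr2 null, 803, 766 and 706 in control, 1805, 2063 and 2214 in JTE and 2183, 2175 and 2270 in JTE with CTGF. Ddit4, which encodes the mTORC1 inhibitor Redd1, was the exception of the list. It was read 1778, 2364 and 2004 times in wt, 1847, 1871 and 2069 times in the libraries labelled S1pr2 null and 4488, 4660 and 4166 times in control. With JTE it was read 4155, 4520 and 3250 times, overlapping control, and with JTE and CTGF 2674, 3177 and 3096 times, below every control library. The log2 fold change of Ddit4 relative to control was −0.20 ± 0.13 (SE) in JTE and −0.41 ± 0.13 (SE) in JTE with CTGF. The latter call was lost without the library JTE with CTGF 1, at −0.33.

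**Figure D2:**
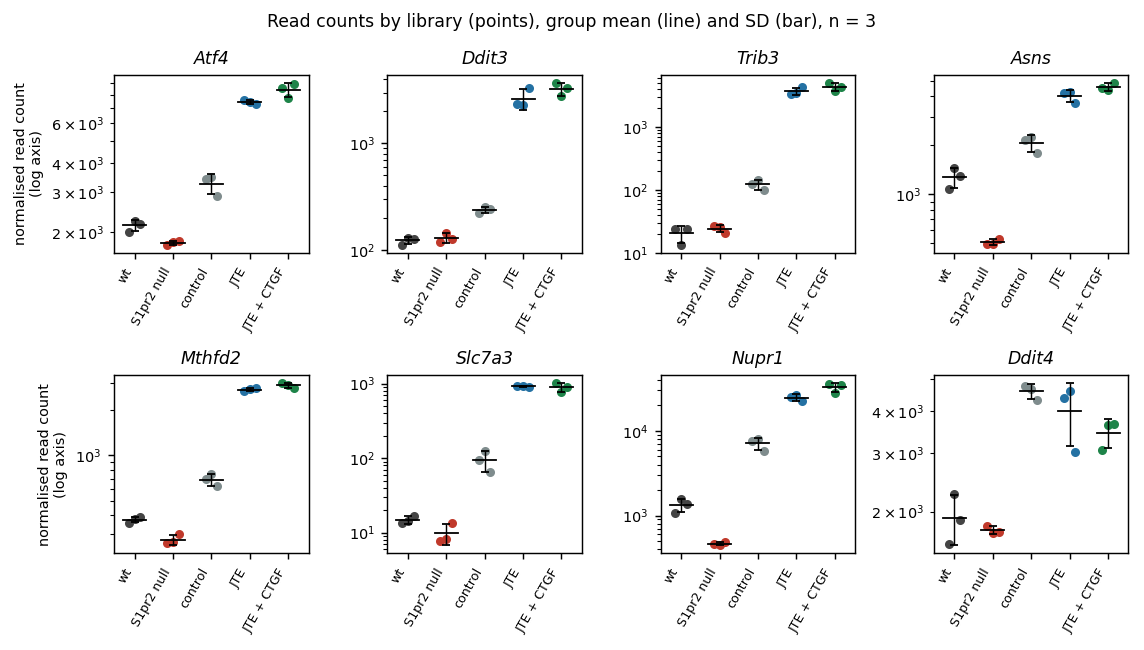
Normalised read counts of 8 of the genes in each library (points), by group, with the mean (line) and SD (bar) of 3 libraries on a log axis that differs between panels. Trib3 spans from a mean of 20.7 in wt to 3652 in JTE explants, Asns and Nupr1 are lowest in the libraries labelled S1pr2 null, and the JTE points of Ddit4 overlap those of control.

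Enzymes of serine synthesis and one-carbon metabolism had a median log2 fold change of 0.73 in JTE, compared with 1.37 for the transcription factors. Phgdh, Psat1 and Psph catalyse the successive steps from 3-phosphoglycerate to serine. Phgdh was read 2153, 2363 and 2179 times in wt, 1802, 1781 and 1878 times in the libraries labelled S1pr2 null, 1387, 1495 and 1248 times in control, 2135, 2317 and 2184 times in JTE and 2185, 2197 and 2150 times in JTE with CTGF. Hence the JTE level of Phgdh was near that of fresh wt tissue, and the control level was the lowest. Of the 50-base words of its transcripts 47.8% also occur elsewhere, mainly in a processed pseudogene, so that its count is uncertain.

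Psat1 was read 1931, 1713 and 1785 times in wt and 1057, 936 and 1304 times in the libraries labelled S1pr2 null. Its counts were 1789, 1849 and 1661 in control, 3018, 3193 and 3484 in JTE and 2429, 2734 and 2371 in JTE with CTGF. The log2 fold changes in JTE relative to control were 0.64 ± 0.07 (SE) for Phgdh, 0.82 ± 0.07 (SE) for Psat1 and 1.03 ± 0.09 (SE) for Psph.

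Serine is turned into one-carbon units in the mitochondrion by Shmt2, Mthfd2 and Mthfd1l, which differed among themselves. Shmt2 was read 1604, 1801 and 1675 times in wt, 1263, 1252 and 1369 times in the libraries labelled S1pr2 null, 1678, 1828 and 1587 times in control, 2251, 2368 and 2525 times in JTE and 2105, 2022 and 1872 times in JTE with CTGF. For Mthfd2 the reads were 398, 394 and 413 in wt, 266, 287 and 358 in the libraries labelled S1pr2 null, 652, 743 and 600 in control, 2495, 2665 and 2979 in JTE and 2624, 2524 and 2362 in JTE with CTGF. Mthfd2 stood 3.94 times above control in JTE explants, the largest ratio of the 6 enzymes. Mthfd1l, the next enzyme of the same route, was read 578, 563 and 608 times in wt, 514, 525 and 589 times in the libraries labelled S1pr2 null, 426, 399 and 388 times in control, 443, 478 and 495 times in JTE and 389, 372 and 333 times in JTE with CTGF. Its log2 fold change of 0.17 ± 0.07 (SE) in JTE was the smallest of the list above 0. The call of Mthfd1l was lost under 9 of the alternatives, among them DESeq2, where the change was 0.15.

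Asns makes asparagine, and Cth makes cysteine from cystathionine. Asns (ENSMUSG00000029752, chromosome 6, 7675169 to 7693254) was read 1194, 1509 and 1382 times in wt and 503, 539 and 631 times in the libraries labelled S1pr2 null. Control explants held 2017, 2235 and 1712 Asns reads, JTE explants 3973, 4149 and 3918, and JTE with CTGF 3944, 3837 and 4102. Cth was read 253, 303 and 275 times in wt, 204, 184 and 227 times in the libraries labelled S1pr2 null, 229, 274 and 148 times in control, 1165, 1200 and 1045 times in JTE and 982, 998 and 1030 times in JTE with CTGF. Cth was 5.08-fold and Asns 1.96-fold higher in JTE than in control.

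Proline is made from glutamate by Aldh18a1 and then Pycr1. Aldh18a1 was read 2398, 2292 and 2442 times in wt, 1704, 1705 and 1993 times in the libraries labelled S1pr2 null, 2234, 2575 and 1999 times in control, 4099, 4264 and 4039 times in JTE and 3520, 3295 and 3210 times in JTE with CTGF. Pycr1 was read 258, 285 and 285 times in wt, 233, 228 and 239 times in the libraries labelled S1pr2 null, 550, 676 and 452 times in control, 1050, 999 and 803 times in JTE and 689, 815 and 728 times in JTE with CTGF. Their log2 fold changes in JTE were 0.82 ± 0.07 (SE) for Aldh18a1 and 0.73 ± 0.13 (SE) for Pycr1.

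Amino acid transporters covered the widest range of any group of roles beside feedback, from 0.23 to 3.28 on the log2 scale in JTE relative to control. Slc7a3, a carrier of arginine and lysine, was read 15, 15 and 18 times in wt, 8, 9 and 16 times in the libraries labelled S1pr2 null, 88, 123 and 62 times in control, 873, 904 and 977 times in JTE and 890, 672 and 766 times in JTE with CTGF. Slc7a1, the related carrier found in most cells, was read 1119, 1223 and 1152 times in wt, 681, 712 and 865 times in the libraries labelled S1pr2 null, 1253, 1426 and 1213 times in control, 3127, 3301 and 3396 times in JTE and 2139, 1914 and 1750 times in JTE with CTGF. Slc7a3 was 9.74-fold and Slc7a1 2.44-fold higher in JTE than in control, yet per length Slc7a1 remained the higher of the pair, at 34.7 RPKM against 19.3 RPKM.

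Slc7a11 imports cystine and Slc7a5 imports large neutral amino acids, both joined to the heavy chain Slc3a2. In JTE explants they stood 6.44-fold, 3.42-fold and 3.58-fold above control, with mean levels of 3.44, 183 and 162 RPKM. The heavy chain and Slc7a5 were thus near each other in level, while Slc7a11 was far lower. Slc1a4, a carrier of alanine, serine and cysteine, was 3.96-fold higher.

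Slc6a9, a glycine carrier, was read 439, 399 and 414 times in wt, 419, 424 and 444 times in the libraries labelled S1pr2 null, 844, 965 and 854 times in control, 1933, 2033 and 1861 times in JTE and 1908, 1581 and 1565 times in JTE with CTGF. Slc38a2, a carrier of small neutral amino acids, was read 3210, 2874 and 3134 times in wt, 3237, 3498 and 3875 times in the libraries labelled S1pr2 null, 3704, 4073 and 3958 times in control, 4440, 4618 and 5217 times in JTE and 4328, 3981 and 3629 times in JTE with CTGF. The log2 fold change of Slc38a2 in JTE was 0.23 ± 0.05 (SE), the smallest of the transporters, although the normalised values of the groups did not overlap. Exons of Slc6a9 overlap B4galt2 and Ccdc24 on the opposite strand, and 26.3% of its words occur elsewhere, so that its count is uncertain.

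The secreted and cell surface products all stood at least doubled in JTE explants. Gdf15, a stress hormone that acts on the brainstem, was read only 9, 11 and 6 times in wt and 4, 3 and 3 times in the libraries labelled S1pr2 null, but 120, 109 and 66 times in control, 469, 502 and 478 times in JTE and 382, 420 and 437 times in JTE with CTGF. Vldlr, a receptor for lipoproteins, was read 420, 341 and 402 times in wt, 413, 380 and 571 times in the libraries labelled S1pr2 null, 509, 592 and 472 times in control, 3091, 3251 and 3600 times in JTE and 2752, 2253 and 2317 times in JTE with CTGF. The log2 fold changes in JTE relative to control were 2.25 ± 0.15 (SE) for Gdf15, 2.61 ± 0.10 (SE) for Vldlr and 2.40 ± 0.10 (SE) for the secreted glycoprotein Stc2.

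The libraries labelled S1pr2 null were then compared with wt. These 6 libraries are not among those of the JTE comparisons, although all 15 shared 1 estimate of the spread in the fit. The list was drawn up with earlier results of these data known, and this contrast is not excepted. Fold changes, calls and p-values here can be biased by that choice and are given as a description. Enzymes that make serine, asparagine and one-carbon units were lower, whereas Ddit3, Trib3, Atf3, Atf5, Cebpb and Cebpg did not pass the test. Of the 34 genes, 13 were called lower and 1 higher by edgeR, beside 13.3% and 12.6% of all genes tested, and the median log2 fold change was −0.25, beside −0.01 over all genes. In normalised counts, 20 genes did not overlap with wt and were lower, and 2 did not overlap and were higher, beside 23.8% and 22.5% of all genes.

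By role, 5 of the 6 serine and one-carbon enzymes were lower in the libraries labelled S1pr2 null, all but Mthfd1l (adjusted p = 0.129). Psat1 changed by −0.75 ± 0.07 (SE, edgeR adjusted p = 1.79e-06) and Psph by −0.61 ± 0.11 (SE, edgeR adjusted p = 4.57e-04). The changes of Mthfd2, Shmt2 and Phgdh were −0.44, −0.42 and −0.32, with edgeR adjusted p of 4.20e-04, 1.35e-04 and 0.00284. Asns was 2.50-fold lower (−1.32 ± 0.10 SE, edgeR adjusted p = 2.13e-07). Cth (−0.47 ± 0.16 SE, edgeR adjusted p = 0.0397) lost its call without either of the wt libraries 2 and 3 or any 1 library labelled S1pr2 null, with values of −0.38 to −0.52. Of the proline enzymes, Aldh18a1 was lower (−0.43 ± 0.07 SE, edgeR adjusted p = 3.57e-04) and Pycr1 stood at −0.27 ± 0.16 (SE, edgeR adjusted p = 0.226). Pycr1 was called lower with only the libraries compared (−0.27).

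Among the transcription factors, Nupr1 was 2.88-fold lower in the libraries labelled S1pr2 null (−1.53 ± 0.14 SE, edgeR adjusted p = 8.86e-07), the largest change of the list in this comparison. Atf4 was 1.19-fold lower (−0.25 ± 0.07 SE, edgeR adjusted p = 0.0133), a call lost without wt 2 (−0.22), without wt 3 (−0.24) or without S1pr2 null 1 (−0.24), with edgeR adjusted p of 0.05 to 0.0641. Ddit3 (0.09 ± 0.19 SE, edgeR adjusted p = 0.786) and Trib3 (0.22 ± 0.36 SE, edgeR adjusted p = 0.688) did not pass, and the groups overlapped for both. Cebpg stood at 0.23 ± 0.10 (SE, edgeR adjusted p = 0.0909), with every library labelled S1pr2 null above every wt library. It was called higher with no filter on low counts (0.23), with only the libraries compared (0.24) and without JTE 3 (0.23). Gdf15 stood at −1.37 ± 0.56 (SE, edgeR adjusted p = 0.0751) on 3 to 11 reads per library, and Chac1 at −0.57 ± 0.54 (SE, edgeR adjusted p = 0.474). Gdf15 was called lower with no filter and without control 3, both at −1.37.

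Slc7a1 was the only transporter called lower (−0.67 ± 0.07 SE, edgeR adjusted p = 7.21e-06) and Slc38a2 the only one of the 34 genes called higher (0.17 ± 0.05 SE, edgeR adjusted p = 0.0211). The call of Slc38a2 was lost without wt 2, without S1pr2 null 2 or without S1pr2 null 3, at 0.14 to 0.17. Slc7a5 was called lower with the replicate block (−0.16) or without S1pr2 null 2 (−0.22), and Slc1a4 without wt 2 (−0.375). Stc2 was lower (−0.63 ± 0.12 SE, edgeR adjusted p = 9.29e-04). Sesn2 was lower by 0.29 on the log2 scale (−0.29 ± 0.09 SE, edgeR adjusted p = 0.0203), a call lost without wt 2 (−0.20), S1pr2 null 1 (−0.26) or S1pr2 null 2 (−0.28).

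Markers of other cell types moved with these genes. The summed normalised reads of 4 acinar markers were 40889 to 56497 in wt and 17620 to 19366 in the libraries labelled S1pr2 null, with 3 of 4 called lower. For 4 endocrine markers they were 18429 to 21155 and 8032 to 9967, with 4 of 4 lower, and for 5 epithelial markers 22662 to 24658 and 16703 to 17642, with 4 of 5 lower. Spleen and stomach markers went the other way, from 749 to 867 in wt to 1181 to 1665, with 3 of 4 called higher. The part of these cell types in the changes of Asns, Nupr1 and the serine enzymes was not tested.

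**Figure D3:**
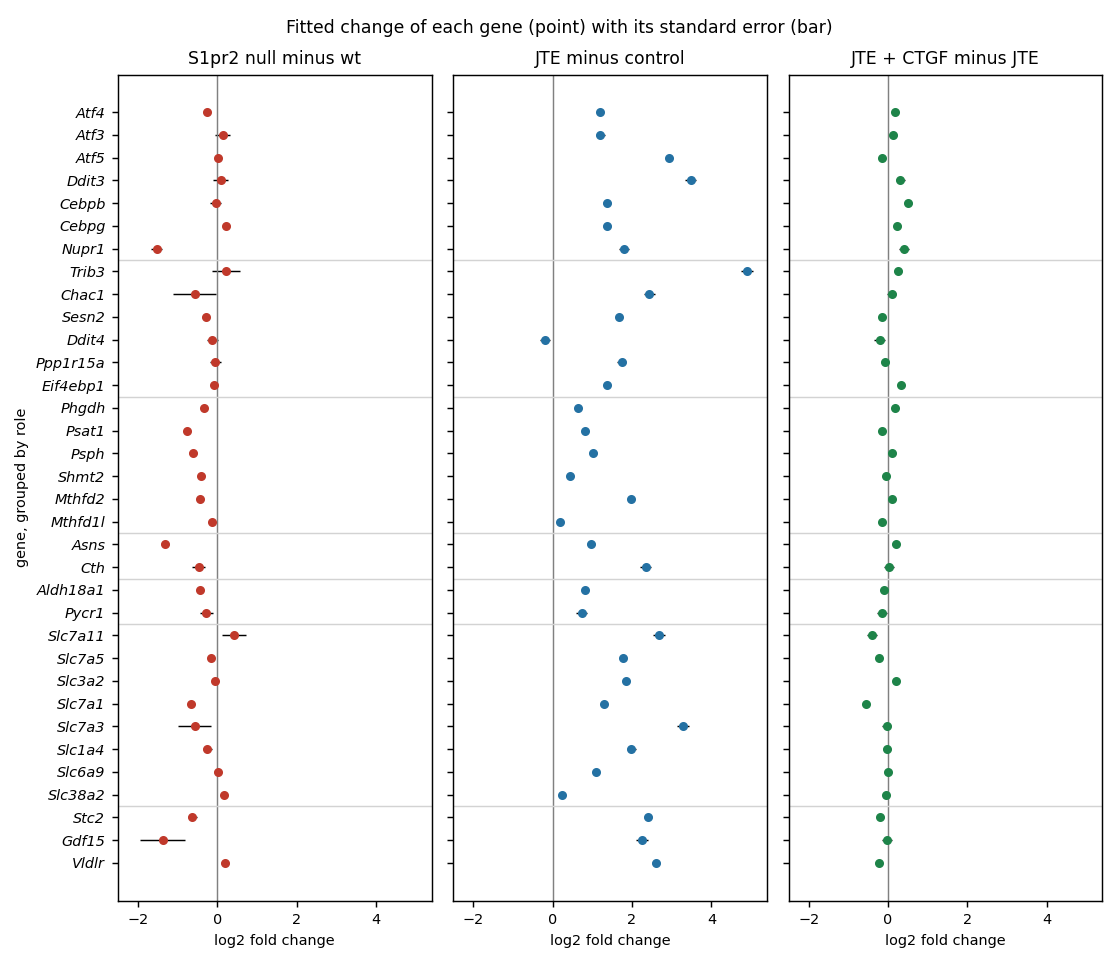
Fitted log2 fold change of each of the 34 genes (points) with its standard error (bars) in 3 comparisons, with genes grouped by role. Changes in the libraries labelled S1pr2 null lie between −1.53 and 0.42, those in JTE explants between −0.20 and 4.89, and those of JTE with CTGF relative to JTE between −0.55 and 0.51.

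Set side by side, the changes in the libraries labelled S1pr2 null and in JTE explants, which share no library, had a Spearman coefficient of 0.133 and a Pearson coefficient of 0.126 over the 34 genes, a description over genes of one list. Asns changed by −1.32 in the first and 0.97 in the second comparison, Psat1 by −0.75 and 0.82, and Slc7a1 by −0.67 and 1.29. The factors with the largest rises in JTE, Ddit3 and Atf5, stood at 0.09 and 0.01 in the libraries labelled S1pr2 null.

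The addition of CTGF to JTE was examined next. The 3 JTE libraries of this comparison are those described above, whose values were known when the list was drawn up. That choice can bias the fold changes, calls and p-values of this comparison, which are given as a description. Of the 34 genes 28 differed by less than 0.25 on the log2 scale between JTE with CTGF and JTE, and the largest difference was 0.55. By edgeR, 4 genes were called higher in JTE with CTGF than in JTE and 3 lower, beside 13.6% and 16.8% of all genes tested, and the median log2 fold change was −0.02, beside −0.00223 over all genes. This split depended on the scaling, with 8 higher and 3 lower under RLE or upper-quartile factors, and 10 higher and 4 lower without a filter on low counts. The count of higher genes was 7 without JTE 3, 8 without JTE with CTGF 2, and 2 without either JTE with CTGF 1 or 3. For lower genes the count was 5 when S1pr2 null 2 was left out, 6 without JTE with CTGF 1 and 1 when JTE with CTGF 3 was left out.

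Slc7a1 had the largest difference. It was 1.47-fold lower with CTGF (−0.55 ± 0.07 SE, edgeR adjusted p = 1.64e-05), with every library below every JTE library. Cebpb was 1.42-fold higher (0.51 ± 0.09 SE, edgeR adjusted p = 4.68e-04) and Eif4ebp1 1.26-fold higher (0.34 ± 0.06 SE, edgeR adjusted p = 2.41e-04), again without overlap. Tmem189, which shares exon positions with Cebpb on the opposite strand, stood at a mean of 299 normalised reads in JTE and 417 in JTE with CTGF, and its part in the Cebpb value was not tested. Nupr1 was higher (0.41 ± 0.12 SE, edgeR adjusted p = 0.0183), but not without JTE with CTGF 1 (0.35) or 3 (0.37). Slc7a11 (−0.40 ± 0.13 SE, edgeR adjusted p = 0.0241) and Slc7a5 (−0.23 ± 0.07 SE, edgeR adjusted p = 0.0148) were lower. The call of Slc7a11 was lost without JTE 1, JTE 2, JTE with CTGF 1 or JTE with CTGF 3, at −0.36 to −0.41, and that of Slc7a5 without JTE with CTGF 3 (−0.20). Slc3a2 was called higher at 0.19 ± 0.06 (SE, edgeR adjusted p = 0.0306) although its groups overlapped. That call was lost without JTE 1 (0.14), JTE 2 (0.16), JTE with CTGF 1 (0.14) or JTE with CTGF 3 (0.18), and with only the libraries of the comparison (0.20).

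Atf4, Ddit3 and Trib3 lay near the threshold with CTGF, and whether they passed it depended on the processing. Atf4 stood at 0.18 ± 0.07 (SE, edgeR adjusted p = 0.0548), Ddit3 at 0.31 ± 0.12 (SE, edgeR adjusted p = 0.0589) and Trib3 at 0.24 ± 0.11 (SE, edgeR adjusted p = 0.0984). Without the library JTE 3, which was high for Ddit3, Trib3 and Cebpg within its group, these 3 genes were called higher with CTGF, at 0.54, 0.40 and 0.37. Atf4 was called higher with DESeq2 (0.19), RLE factors (0.19), upper-quartile factors (0.20) and no filter on low counts (0.21), and without control 3 (0.18) or JTE with CTGF 2 (0.23). Ddit3 passed under both factors (0.32 and 0.33), no filter (0.33) and the replicate block (0.32), and without JTE with CTGF 2 (0.41). Trib3 passed with no filter (0.27) and without JTE with CTGF 2 (0.35). Erythroid markers summed to 957 to 2004 normalised reads in JTE with CTGF and 150 to 294 in JTE, with 4 of 4 called higher, and their part in these differences was not tested.

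Control explants were compared with fresh wt pancreata, of which the tissue (dorsal bud and pancreas), age and culture differ together and cannot be told apart. The control libraries are the same as in the comparisons with JTE, whose values were known when the list was drawn up. Fold changes, calls and p-values here can be biased by that choice and are likewise given as a description. Most stress response genes were already higher in control explants. By edgeR 26 of the 34 were called higher and 3 lower, beside 28.5% and 29.3% of all genes, with a median of 0.63, beside −0.02 over all genes. All 6 feedback genes and 6 of the 7 transcription factors were higher, as were 7 of the 8 transporters.

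Chac1 had the largest difference, 21.1-fold (4.40 ± 0.26 SE, edgeR adjusted p = 4.44e-10), followed by Gdf15 (3.64 ± 0.27 SE, edgeR adjusted p = 5.51e-09), and by Slc7a3, Atf3 and Trib3 at 2.65, 2.64 and 2.55, with edgeR adjusted p of 2.02e-07, 2.22e-10 and 2.75e-07. Atf4 was 1.53-fold higher (0.61 ± 0.07 SE, edgeR adjusted p = 1.16e-06). Phgdh (−0.55 ± 0.07 SE, edgeR adjusted p = 5.09e-06) and Mthfd1l (−0.37 ± 0.06 SE, edgeR adjusted p = 9.44e-05) were lower, as was Slc7a5 by a smaller amount (−0.19 ± 0.07 SE, edgeR adjusted p = 0.0250), a call lost without wt 2 (−0.13) or control 3 (−0.13). Shmt2 (0.15, edgeR adjusted p = 0.0420) and Slc3a2 (0.16, edgeR adjusted p = 0.0498) lay at the threshold and were lost when any of several single libraries was left out. Acinar markers summed to 131957 to 178678 normalised reads in control and 40889 to 56497 in wt, with 4 of 4 called higher. Erythroid markers summed to 110 to 222 and 9353 to 10334, with 4 of 4 lower. Their part in the differences was not tested.

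Genes around the pathway were followed in 8 further lists. Of 20 cytosolic aminoacyl-tRNA synthetases, which load amino acids onto tRNA, 13 were called higher and 2 lower in JTE relative to control, with a median of 0.43. The largest log2 fold changes were those of Eprs (1.34), Sars (1.18), Yars (1.17) and Aars (1.09). Of 8 mitochondrial chaperones, proteases and signals, 7 were higher and 0 lower, among them the protease Lonp1 (1.94 ± 0.06 SE) and the chaperone Hspa9 (1.603 ± 0.055 SE). The hormone Fgf21 was higher by 3.31 ± 0.59 (SE) on few reads, with 1, 4 and 3 in control and 22, 25 and 39 in JTE.

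Targets of the Ire1 and Atf6 branches of the ER stress response, such as ER chaperones, were also followed in JTE explants. The Atf4 targets were listed with values of this contrast known, so a difference from them is not read as a result. Of 16 genes 3 were called higher and 9 lower, with a median of −0.21. The 3 were Ern1, which encodes Ire1 itself (1.29), Herpud1 (0.87) and Atf6 (0.73), while Sdf2l1, a chaperone cofactor, was lowest (−0.61 ± 0.14 SE). Of 15 genes of the eIF2 kinases and eIF2 machinery, 7 were higher and 4 lower, with a median of 0.13. This list held the kinases, subunits of eIF2 and eIF2B, and Ppp1r15b, Impact and Gcn1l1. Impact, an inhibitor of the amino acid sensor Gcn2, had the largest change (0.91 ± 0.09 SE). The ER stress kinase gene Eif2ak3 was read 1823, 1946 and 1723 times in control and 1460, 1676 and 1402 times in JTE. The kinase gene Eif2ak4 went the other way, with 610, 658 and 595 reads in control and 715, 777 and 774 in JTE. Eif2ak1 was read 652, 667 and 603 times in control and 664, 744 and 806 times in JTE. For Eif2ak2 the reads were 929, 506 and 531 in control and 427, 439 and 503 in JTE.

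Other enzymes and carriers of the same metabolism were mixed. Of 16 further genes of serine, one-carbon and proline metabolism, 3 were called higher and 6 lower in JTE, with a median of −0.15. Aldh1l2, which oxidises formyl-tetrahydrofolate in the mitochondrion, was 8.84-fold higher, and Gldc of the glycine cleavage system fell by 1.86 on the log2 scale, from a mean of only 19.7 to 5.34 normalised reads. Of 16 further amino acid transporters 6 were higher and 6 lower, with the glutamine carrier Slc1a5 highest at 1.06 ± 0.14 (SE). Of 10 Nrf2 targets 4 were higher and 2 lower, with Osgin1 at 1.07, and of 10 genes of the p53 response 5 were higher and 3 lower, with Trp53 itself at −0.74. The background in this comparison was 25.9% higher and 26.2% lower, so the Nrf2, p53, carrier and enzyme lists held both directions as the whole table did.

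**Figure D4:**
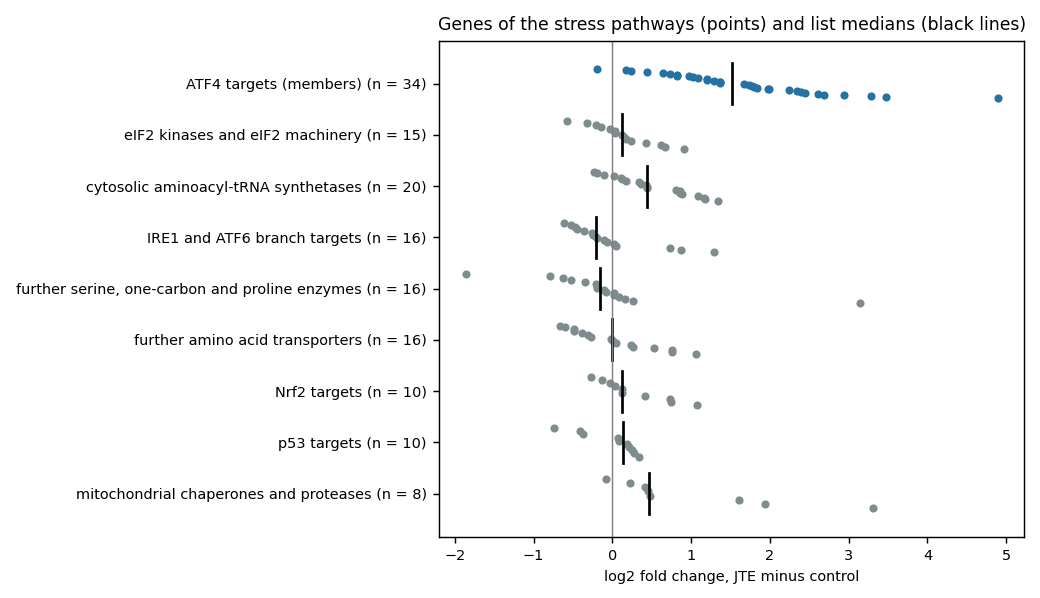
Log2 fold change in JTE relative to control of every gene (points) in the Atf4 target list and in 8 lists around it, with the median of each list (black line). The Atf4 targets have a median of 1.52, and the medians of the other lists lie between −0.21 and 0.46. Because the Atf4 targets were listed with values of this contrast known, the difference in medians is a description only.

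In the libraries labelled S1pr2 null, the lists around the pathway are read beside 13.3% of all genes called lower and 12.6% called higher. They too were chosen with earlier results known, which can bias their calls and p-values. Of the 16 targets of Ire1 and Atf6, 11 were called lower and 0 higher, led by Edem1 (−1.08 ± 0.14 SE, edgeR adjusted p = 3.77e-05). Of the 16 further amino acid transporters 8 were lower and 1 higher. Slc1a5 was 3.98-fold lower (−1.99 ± 0.16 SE, edgeR adjusted p = 3.37e-07), and Slc38a3 and Slc7a2 changed by −1.23 and −1.16 with edgeR adjusted p of 1.69e-05 and 4.33e-08. Of the 16 further serine, one-carbon and proline genes 8 were lower, among them Cbs, which makes cystathionine (−1.20 ± 0.19 SE, edgeR adjusted p = 2.41e-04), and 2 were higher. Synthetases were lower in 5 of 20, Nrf2 targets in 4 of 10, p53 targets in 3 of 10 and mitochondrial chaperones and proteases in 1 of 8, with 0 higher in each, and of the 15 eIF2 genes 1 was lower and 1 higher. The same acinar and endocrine markers were lower in these libraries.

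Cell type markers also differed between JTE and control explants, and the endocrine, epithelial, macrophage and endothelial ones moved against the list. Endocrine markers summed to 7397 to 10735 normalised reads in JTE and 51488 to 58346 in control, with 4 of 4 called lower, and epithelial markers to 20080 to 25194 and 31766 to 36022, with 4 of 5 lower. Macrophage markers summed to 658 to 791 and 1577 to 1858, with 4 of 4 lower. Of the endothelial markers 4 of 4 were lower, whereas 0 of 4 acinar markers were called. Of 5 mesenchymal markers, 2 were called higher and 0 lower. The mitochondrial share of reads was 1.32% to 1.498% in JTE and at most 1.22% in control and fresh tissue. Their part in the changes of the 34 genes was not tested. In 26 of the 34 genes no exon overlapped another gene and under 5% of 50-base words were shared with another locus, and their median in JTE was 1.72.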

How the data were processed

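RNA was sequenced in 15 single-end libraries of embryonic mouse pancreas, made with a poly(A) and strand-specific kit, with groups and replicate numbers taken from the sample titles. The authors aligned reads with GSNAP to mm10, counted uniquely aligned reads per gene of Ensembl release 69 with featureCounts 1.4.6, and deposited the raw read counts with each gene's length. No strand setting of the counting is given in the sources used here. Reads may therefore be shared between genes on opposite strands, and reads that fit several loci are lost. Of the 25292 gene IDs in the table, 97.9% matched a symbol in GENCODE M21.

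The edgeR 4.0.16 quasi-likelihood F-test (R 4.3.3) was run on the counts with TMM factors, filterByExpr, 1 coefficient per group and all 15 libraries in one fit without covariates. Benjamini-Hochberg adjustment covered 16245 genes, and genes were called at an adjusted p below 0.05. SE is the fitted log2 fold change divided by the square root of F. Normalised counts are scaled to the mean effective library size, and RPKM uses the deposited length. The test was tried on simulated counts. The alternatives were DESeq2 1.42.0, RLE or upper-quartile factors, no filter on low counts, a replicate block, only the libraries compared, the criterion of the study and leaving out each library.

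The 34 genes, the lists around them and the markers were chosen with earlier results of these data known. Reads in every library are given for Atf4, Ddit3 and Trib3 and, per role, for the genes with the largest and smallest change in each comparison of libraries labelled S1pr2 null with wt, JTE with control or JTE with CTGF against JTE. Of the lists around them, at most 4 genes are named per comparison, those with the largest change among those called. The eIF2 kinase genes were added after their values were seen.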

Additional observations from a re-analysis of the deposited data

How the results depend on the processing

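No gene of the list changed direction against a called value under any alternative run. Of the values per gene and alternative, 3458 kept their side of the threshold, 61 lost a call and 49 gained one, and 38 of the gains fell in the comparison of JTE with CTGF against JTE. When single libraries were left out, 10 to 14 genes were called lower in the libraries labelled S1pr2 null. Of the lost calls, 25 fell in control relative to wt, 14 in the libraries labelled S1pr2 null and 9 in JTE relative to control. JTE with CTGF lost 12 relative to JTE and 1 relative to control. Gained and lost calls together were most frequent in JTE with CTGF against JTE. There, 8 genes were higher with RLE factors, 8 with upper-quartile factors and 10 without a filter on low counts, 2 to 8 when single libraries were left out, and 1 to 6 were then lower. The median of this comparison was 0.00386 without the filter and 0.0407 without JTE with CTGF 2, so its sign was not fixed. In the libraries labelled S1pr2 null, 2 genes were higher without a filter and 2 with only the libraries compared, and 0 to 2 when single libraries were left out. The gene lower in JTE with CTGF relative to control, Ddit4, was lost in 1 such fit, giving 0 to 1. The cause of these shifts was not tested.

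The criterion of the study asks for a larger change. It takes a fold below 0.6 or above 1.6, more than 100 mean normalised reads and an adjusted p up to 0.1. It was counted over protein-coding genes only, but the adjusted p alone over all genes tested, so the counts are not alike. In the libraries labelled S1pr2 null it called 488 against 4199 with the adjusted p alone, and in JTE 1341 against 8474. For JTE with CTGF the counts were 1913 against 9926 relative to control and 283 against 4941 relative to JTE. In control relative to wt it called 1971 against 9389. Of the 34 genes it called 0 higher and 3 lower in the libraries labelled S1pr2 null, 0 lower in JTE with CTGF relative to control, 0 higher and 0 lower relative to JTE, and 13 higher and 0 lower in control relative to wt. With the 26 genes without overlapping exons or shared words, a choice made after seeing the data, the median in JTE was 1.72.

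Same-numbered libraries share only a number. The correlation of their deviations from the group means was −0.0473 to 0.248 for JTE and control, −0.097 to −0.0041 for JTE with CTGF and JTE, −0.0867 to −0.0572 for JTE with CTGF and control, −0.06 to 0.0687 for the libraries labelled S1pr2 null and wt, and −0.0255 to 0.00815 for control and wt. With the replicate number as a block, 6 genes in place of 4 were higher in JTE with CTGF than in JTE, and 14 were lower in the libraries labelled S1pr2 null. Genes with few reads, such as Trib3, Chac1, Slc7a3 and Gdf15 in fresh tissue, had standard errors up to 0.562 there, so that changes of that size were not detectable at this depth.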
